A study of Mus musculus with 16 samples.

Results

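Nr4a1 lies on mouse chromosome 15, and 10 genes beside it were followed here: Grasp, Krt80, Acvrl1, Fignl2, Scn8a, Slc4a8, Galnt6, Bin2, Csrnp2 and Atf1. They were chosen as neighbours of the targeted gene that may carry DNA of the strain in which the gene was targeted. The choice was made with earlier results of these data known and leaves out other genes that lie among them. The chosen genes are 10 of the 38720 lines of the count table. All 10 passed the filter for low counts, as did 16842 lines in all. RNA sequencing was done on adipose progenitors, the precursor cells in fat tissue that can become adipocytes, from subcutaneous fat (SAT) and visceral fat (VAT) of mice 4 weeks old. Per the labels, the wild-type mice (WT, Nr4a1+/+) were C57BL/6J. The knockout mice (KO, Nr4a1-/-) have the genotype label B6;129S2-Nr4a1tm1Jmi/J, while their strain label is C57BL/6J. The groups WT SAT, KO SAT, WT VAT and KO VAT each held n = 4 libraries. The labels call them biological replicates without naming separate animals, and all p-values rest on the spread between these libraries, which may be technical in part.

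A gene targeted in embryonic stem cells of one mouse strain and then crossed to another keeps a stretch of donor-strain chromosome around the targeted site, because recombination close to the site is rare. Genes in that stretch are inherited with the targeted allele, and donor-strain variants in or near them can change their RNA level whatever the targeted gene does. Nr4a1 itself is an immediate early gene, and its product, a nuclear receptor with no known natural ligand, binds as a monomer to the DNA motif called NBRE. In these samples the loss of Nr4a1, flanking 129S2 DNA and the rest of the strain background all come with the genotype label, so their parts in any KO difference cannot be told apart.

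Positions are given for mm10, the build named in the submitters' processing notes, from the GENCODE annotation of the same assembly. Nr4a1 spans chromosome 15, 101254269 to 101274795, on the plus strand. The gap between gene bodies was 21.5 kb for Grasp (101224188 to 101232756, plus strand). Krt80 (101347444 to 101370162, minus strand) lay 72.6 kb away and was the sole one of the 10 at higher coordinates than Nr4a1. At lower coordinates followed Acvrl1 at 108.9 kb (101128522 to 101145336, plus strand), Fignl2 at 175.7 kb (101050194 to 101078567, minus strand) and Scn8a at 208.3 kb (100869858 to 101045938, plus strand). Slc4a8 lay 430.3 kb away (100761747 to 100823968, plus strand), Galnt6 524.9 kb away (100691813 to 100729376, minus strand) and Bin2 584.7 kb away (100641077 to 100669553, minus strand). The farthest were Csrnp2 at 758.8 kb (100479570 to 100495488, minus strand) and Atf1 at 993.0 kb (100227819 to 100261244, plus strand). Exons of Krt80, Acvrl1 and Galnt6 overlap exons of genes on the opposite strand by 263, 127 and 441 bases. The library kit does not mark strand, so reads from such overlaps cannot be assigned to a strand.

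Because Nr4a1 is a DNA-binding receptor, the promoters of the genes whose KO comparison passed the test are shown, with the promoter that held the motif NBRE. RefSeq (GRCm38.p6) gave 9 promoter windows for 7 of the 10 genes, each of 300 bases, 250 before and 50 after a transcription start. The reference is C57BL/6J sequence and holds no 129S2 variant. Capitals mark NBRE, spelled AAAGGTCA and searched on both strands, which contains the shorter nuclear receptor motif AGGTCA.
Slc4a8 (chr15:100761497-100761796, plus strand): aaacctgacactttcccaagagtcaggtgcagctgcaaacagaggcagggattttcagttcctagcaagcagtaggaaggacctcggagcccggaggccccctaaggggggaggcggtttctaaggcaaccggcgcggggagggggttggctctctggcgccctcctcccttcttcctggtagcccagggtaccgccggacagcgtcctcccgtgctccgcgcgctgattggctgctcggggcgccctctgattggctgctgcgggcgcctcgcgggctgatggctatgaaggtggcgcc
Galnt6 (chr15:100729327-100729626, minus strand, window 1 of its 2): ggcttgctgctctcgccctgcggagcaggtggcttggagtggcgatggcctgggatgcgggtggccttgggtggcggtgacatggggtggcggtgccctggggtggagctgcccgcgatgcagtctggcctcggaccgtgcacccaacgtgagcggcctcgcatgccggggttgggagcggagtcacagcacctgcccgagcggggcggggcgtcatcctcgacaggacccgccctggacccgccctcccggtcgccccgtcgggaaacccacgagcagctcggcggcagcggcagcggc
Csrnp2 (chr15:100495190-100495489, minus strand): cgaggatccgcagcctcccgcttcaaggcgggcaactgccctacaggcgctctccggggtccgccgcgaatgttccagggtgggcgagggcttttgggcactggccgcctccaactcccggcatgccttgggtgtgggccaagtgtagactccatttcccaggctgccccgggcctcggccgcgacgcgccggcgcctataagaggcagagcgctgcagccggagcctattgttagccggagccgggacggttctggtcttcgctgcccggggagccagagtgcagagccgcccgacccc
Scn8a (chr15:100936021-100936320, plus strand, window 2 of its 2): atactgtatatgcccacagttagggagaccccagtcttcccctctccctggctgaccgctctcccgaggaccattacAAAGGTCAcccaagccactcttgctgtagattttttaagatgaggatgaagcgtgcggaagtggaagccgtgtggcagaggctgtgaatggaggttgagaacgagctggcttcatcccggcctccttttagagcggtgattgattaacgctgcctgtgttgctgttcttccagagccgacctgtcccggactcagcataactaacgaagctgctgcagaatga
NBRE occurred in 1 of the 9 windows, that of Scn8a, 173 bases before the start. Of 32851 RefSeq promoter windows of the same length, 495 held it (1.51%). The motif AGGTCA occurred in that same Scn8a window and in the Atf1 window, against 16.3% of all windows. The CREB/ATF1 motif TGACGTCA was in none of the 9, against 1.79% of all windows. A match in letters is a description and shows no binding.

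Total counts per library ranged from 34655519 to 55551845, with a median of 44139620. Levels are CPM, counts relative to the library total after scaling by edgeR's TMM factors. Summed levels of 12 adipose progenitor markers stood at 119000 to 170000 CPM in the SAT libraries and 43900 to 57800 CPM in the VAT libraries. The matrix genes Col3a1 (23000 to 105000 CPM over all libraries), Col1a1 (8320 to 51000) and Dcn (7430 to 12000) were the most abundant of these markers. Of the 12, 9 were called lower in VAT in WT and 7 in KO (calls as defined below), while Pdgfrb alone was called higher in VAT in both genotypes. The targeted gene was lower in every KO library: Nr4a1 averaged 1090 ± 99.4 CPM in WT SAT against 201 ± 6.11 in KO SAT, and 1540 ± 97.5 in WT VAT against 309 ± 12.8 in KO VAT (SD, n = 4 each). WT SAT replicate 3 and KO VAT replicate 4 were least like their own groups (mean correlations of log2 CPM of 0.976 and 0.981, against 0.982 to 0.99 for the others).

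All 10 neighbours were below Nr4a1 in level. By mean CPM they ranged from percentile 23.5 of the genes tested (Bin2) to 93.6 (Acvrl1), with Nr4a1 at 99.3. Per kb of exon, Acvrl1 stood highest at a mean of 33.5 CPM per kb over the 16 libraries, Grasp at 13.2 and Atf1 at 11.6. Fignl2 (3.87), Csrnp2 (2.5) and Slc4a8 (1.61) were in the middle on that scale. Galnt6 (0.877), Krt80 (0.833), Bin2 (0.549) and Scn8a (0.266) were at the bottom, beside 223 CPM per kb for Nr4a1. In WT SAT, Slc4a8 (2.03 ± 0.597 CPM per kb) overlapped in spread with Csrnp2 (2.24 ± 0.151) and with Krt80 (1.43 ± 0.504). Csrnp2 and Krt80 did not overlap each other. Bin2 (0.435 ± 0.211), Galnt6 (0.353 ± 0.0402) and Scn8a (0.344 ± 0.0425) all overlapped in spread. In WT VAT, Galnt6 stood at 2.18 ± 0.301 CPM per kb, within the spread of Slc4a8 (2.38 ± 0.104) and Csrnp2 (2.23 ± 0.202), and Scn8a was lowest of the 10 at 0.0972 ± 0.0178.

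**Figure D1:**
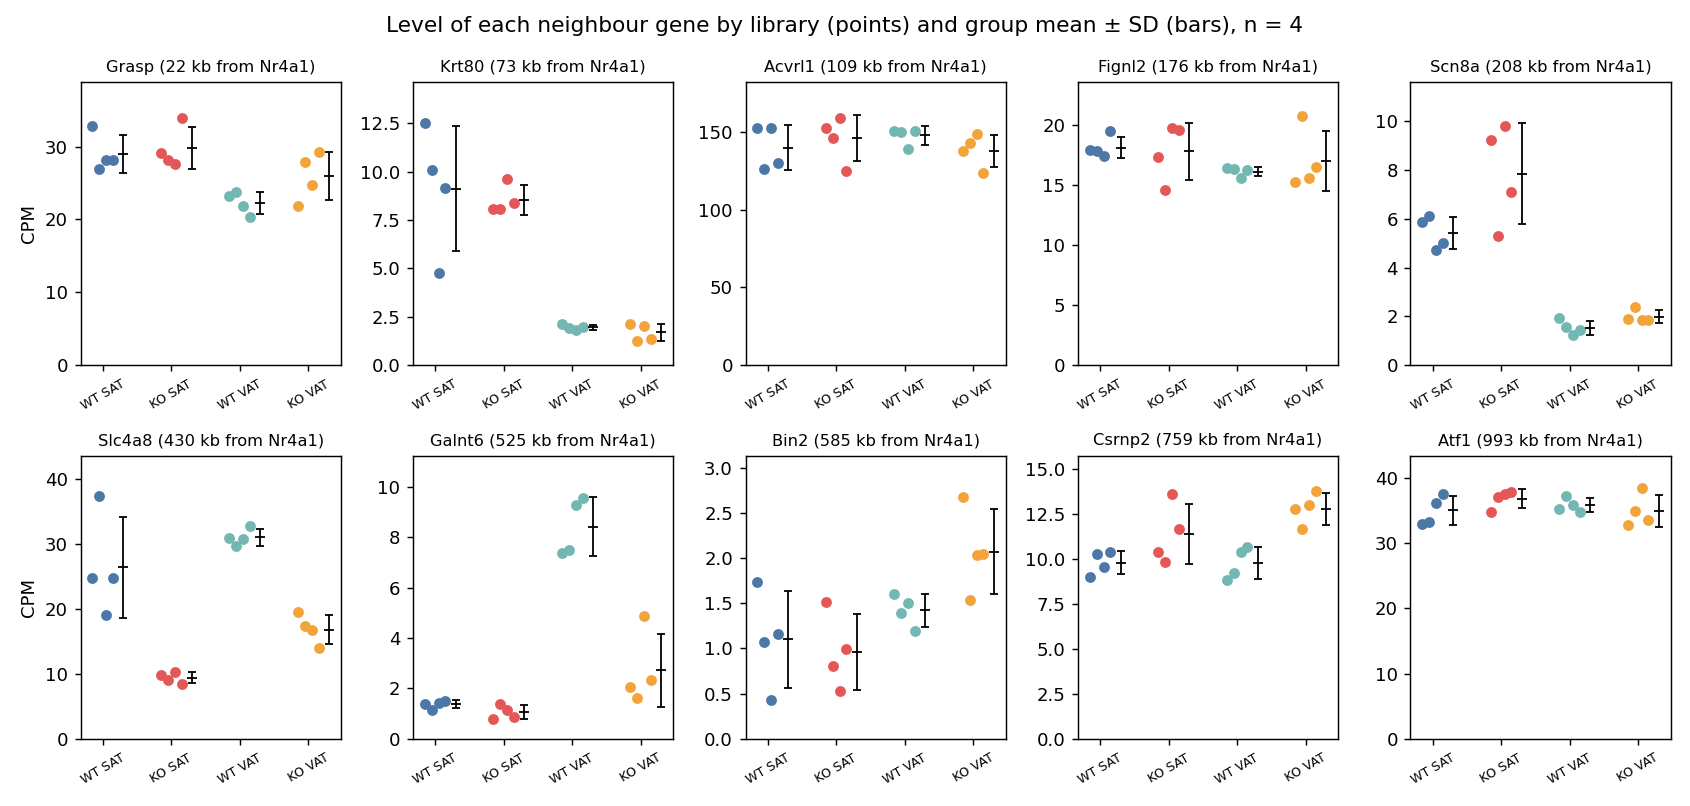
Level in CPM (linear vertical axes from 0) of each of the 10 neighbours in the 16 libraries, 1 panel per gene in order of gap to Nr4a1, with points for libraries and bars for the group mean ± SD (n = 4). Slc4a8 is lower in both KO groups, Galnt6 is highest in WT VAT, and Krt80 and Scn8a are low in both VAT groups.

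Between KO and WT, Slc4a8 fell in both depots, Galnt6 fell in VAT, Csrnp2 rose in VAT by a smaller amount, and no other neighbour passed the test in either depot. In SAT 1 of the 10 was called (adjusted p under 0.05 by edgeR's quasi-likelihood test, Benjamini-Hochberg over all 16842 genes), against 5.89% of all genes tested. That 1 was lower, as were 2.43% of all genes, and 0 were higher, against 3.46%. In VAT 3 of the 10 were called, against 4.1% of all genes tested. Of these, 1 was higher (2.84% of all genes) and 2 were lower (1.26%). The median log2 fold change over the 10 was 0 in SAT and 0.02 in VAT, beside -0.01 and 0 over all genes. The median size of change regardless of direction was 0.16 in SAT and 0.3 in VAT, beside 0.18 and 0.14 over all genes. The KO and WT libraries did not overlap for 1 of 10 in SAT (14.7% of all genes) and 3 of 10 in VAT (13.7%). Because the 10 were chosen with earlier results known, these shares are descriptions and no test. In bulk samples, fewer cells of a type and less RNA per cell cannot be told apart.

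Slc4a8 encodes a sodium-driven chloride/bicarbonate exchanger, a membrane protein that helps set the pH inside the cell. Its level was 24.7, 37.4, 19 and 24.7 CPM in WT SAT and 9.89, 9.07, 10.3 and 8.43 CPM in KO SAT. In VAT it was 30.9, 29.6, 30.7 and 32.8 CPM in WT and 19.5, 17.3, 16.7 and 14 CPM in KO. Every KO library was below every WT library of its depot, and the WT SAT libraries spread widest. The log2 fold change was -1.49 ± 0.16 (SE) in SAT, a KO level 0.356 times that of WT (edgeR adjusted p = 4.29e-05). In VAT it was -0.88 ± 0.15, or 0.543 times (edgeR adjusted p = 0.00225). The depots' KO effects differed by 0.61 ± 0.22 on the log2 scale, which did not pass (unadjusted p = 0.0118, edgeR adjusted p = 0.197). Both KO calls held in all 23 other settings and left-out libraries, with values from -1.62 to -1.28 in SAT and -0.96 to -0.80 in VAT.

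Of 8 tested SLC4 genes, the bicarbonate transporter family, Slc4a8 was the sole one called in either depot. The family's median log2 fold change was -0.05 in SAT and -0.12 in VAT. Over the 16 libraries, the genes whose log2 CPM was most like that of Slc4a8 were Mettl7a1 (Pearson r = 0.926), Klf15 (0.925) and Sun2 (0.923). These correlations are descriptions across libraries that share group and depth, with no test. Mettl7a1 is also on chromosome 15, 0.93 Mb from Nr4a1, and Klf15 is on chromosome 6. Sun2 is on chromosome 15 too, which by itself does not make it a neighbour of Nr4a1.

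Galnt6 encodes a GalNAc transferase, an enzyme that starts mucin-type O-glycan chains on proteins in the Golgi. It stood at 7.37, 7.49, 9.3 and 9.57 CPM in WT VAT and at 2.07, 1.63, 4.86 and 2.32 CPM in KO VAT. All KO VAT libraries lay below all WT VAT libraries, and KO VAT replicate 3 was well above the other 3. The log2 fold change in VAT was -1.63 ± 0.26, a KO level 0.323 times that of WT (edgeR adjusted p = 0.00123). The call held in all 23 other settings, from -2.07 (without KO VAT replicate 3) to -1.45. In SAT the gene was near the bottom of the range, at 1.37, 1.15, 1.44 and 1.51 CPM in WT and 0.792, 1.4, 1.15 and 0.873 CPM in KO. The SAT groups overlapped and the log2 fold change of -0.38 ± 0.30 did not pass (edgeR adjusted p = 0.467).

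The KO effect on Galnt6 differed between depots by -1.25 ± 0.39 on the log2 scale, which did not pass over all genes (unadjusted p = 0.00567, edgeR adjusted p = 0.154). Without KO VAT replicate 3 it was -1.69 (edgeR adjusted p = 0.0127), so that 1 library decides this call. The VAT libraries differed in the summed level of 8 mesothelium markers, from 797 to 1560 CPM in WT and from 785 to 1520 CPM in KO. KO VAT replicate 3, highest of the KO VAT libraries in Galnt6, was also highest of them in that sum (1520, against 874, 785 and 1070 CPM). In WT VAT, replicates 3 and 4 were highest in both (sums of 1410 and 1560 CPM, Galnt6 at 9.3 and 9.57 CPM). WT VAT replicates 1 and 2, at sums of 1270 and 797 CPM, held 7.37 and 7.49 CPM of Galnt6. Both were above the 4.86 CPM of KO VAT replicate 3. Summed levels of 11 epithelium and mammary gland markers overlapped between WT VAT (64.7 to 104 CPM) and KO VAT (43.6 to 135 CPM). Of the KO VAT libraries, replicate 4 was highest in that sum (135 CPM, against 101 in replicate 3). The part of other cells in the Galnt6 result was not tested.

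Among 16 tested genes of mucin-type O-glycan initiation and core extension, 1 was lower in KO SAT and 2 in KO VAT, with none higher. Galnt15, another GalNAc transferase, which is not on the member list, fell in both depots (-0.98 ± 0.13, edgeR adjusted p = 0.000188 in SAT, and -1.08 ± 0.13, edgeR adjusted p = 7.97e-05 in VAT). The genes most like Galnt6 over the 16 libraries were Sorbs3 and Paics (Pearson r = 0.939 each) and Ppp2cb (0.938), none on chromosome 15.

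Csrnp2 encodes a cysteine- and serine-rich nuclear protein, a likely transcription regulator. It stood at 8.82, 9.22, 10.4 and 10.7 CPM in WT VAT and at 12.8, 11.7, 13 and 13.8 CPM in KO VAT. The groups did not overlap, with a gap between 10.7 and 11.7 CPM. The log2 fold change was 0.39 ± 0.10, or 1.31 times (edgeR adjusted p = 0.0437), close to the threshold. This call was lost in 14 of 23 other settings, where the change stayed between 0.35 and 0.44 and adjusted p reached 0.148. It was lost without any 1 of the 8 VAT libraries, without replicate 1 or 4 of WT SAT or of KO SAT, without the low-count filter and without both outlying libraries. In SAT the levels were 9, 10.3, 9.55 and 10.4 CPM in WT and 10.4, 9.85, 13.6 and 11.7 CPM in KO, overlapping, with a log2 fold change of 0.22 ± 0.11 (edgeR adjusted p = 0.237). The KO effects of the depots differed by 0.18 ± 0.15 (edgeR adjusted p = 0.567). Over the 16 libraries Csrnp2 was most like Arhgef39 (Pearson r = 0.863), Ccne1, the gene of cyclin E1 (0.848), and Fam83d (0.847).

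Atf1, the other transcription regulator and a CREB-family factor that binds cAMP response elements, stayed within a narrow range. In SAT it was at 32.9 to 37.5 CPM in the WT and 34.7 to 37.9 CPM in the KO libraries. In VAT it was at 34.8 to 37.2 CPM in the WT and 32.8 to 38.4 CPM in the KO libraries. Its log2 fold changes of 0.07 ± 0.07 in SAT and -0.03 ± 0.07 in VAT did not pass (edgeR adjusted p = 0.53 and 0.851). None of the 10 tested CREB/ATF1 factors and coactivators was called between KO and WT in either depot.

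Acvrl1 encodes ALK1, a receptor kinase for circulating BMP ligands that is best known from endothelium, and it was the most abundant of the 10. Its levels were 153, 126, 153 and 130 CPM in WT SAT and 153, 146, 159 and 125 CPM in KO SAT. In VAT they were 151, 150, 139 and 151 CPM in WT and 138, 143, 149 and 124 CPM in KO. The groups overlapped in both depots, with log2 fold changes of 0.06 ± 0.09 and -0.10 ± 0.09 (edgeR adjusted p = 0.74 and 0.634). The summed level of 12 endothelium markers was 249 to 292 CPM in the WT and 279 to 350 CPM in the KO libraries of SAT. The same sum was 208 to 230 CPM in the WT and 173 to 196 CPM in the KO libraries of VAT. Tek (48.1 to 286 CPM over the 16 libraries) and Esam (34.4 to 109 CPM) were the most abundant of these markers. Over the 11 markers tested, the median log2 fold change of KO over WT was -0.14 in SAT, where Kdr alone was called, higher, and 0.28 in VAT, where none was called. In both depots that median had the opposite sign to the difference in the sum. Of 19 tested genes of ALK1 signalling, 1 fell in SAT, Id3, a target gene of BMP signals that inhibits basic helix-loop-helix factors (-0.39 ± 0.10, edgeR adjusted p = 0.0254), and none was called in VAT, where Id3 stood at -0.33 ± 0.10 (edgeR adjusted p = 0.0648).

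Grasp, the nearest of the 10 to Nr4a1, encodes tamalin, a scaffold that links receptors to cytohesin trafficking factors. It stood at 32.8, 27, 28.2 and 28.2 CPM in WT SAT and 29.2, 28.2, 27.6 and 34 CPM in KO SAT. The VAT libraries held 23.2, 23.8, 21.9 and 20.4 CPM (WT) and 21.9, 27.9, 24.7 and 29.3 CPM (KO). KO and WT overlapped in both depots. The log2 fold changes of 0.04 ± 0.10 in SAT and 0.22 ± 0.10 in VAT did not pass (edgeR adjusted p = 0.858 and 0.257). Of 7 tested genes, Grasp and tamalin partners, none was called between KO and WT.

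Scn8a encodes the pore-forming subunit of a voltage-gated sodium channel of neurons. It stood at 5.87, 6.1, 4.71 and 5 CPM in WT SAT and at 9.22, 5.29, 9.79 and 7.09 CPM in KO SAT. Of these KO libraries 3 were above all WT libraries, while replicate 2 lay among them. The log2 fold change of 0.53 ± 0.18 did not pass (edgeR adjusted p = 0.0923), but it did without that replicate (edgeR adjusted p = 0.0311) and in DESeq2 (adjusted p = 0.0465). In VAT it was 1.91, 1.56, 1.25 and 1.42 CPM in WT and 1.87, 2.4, 1.85 and 1.85 CPM in KO, with a log2 fold change of 0.38 ± 0.20 (edgeR adjusted p = 0.337). Of 11 tested sodium channel subunit genes, 1 was called, the auxiliary subunit gene Scn4b, which fell in KO SAT (-0.59 ± 0.14, edgeR adjusted p = 0.0197). Summed levels of 10 Schwann and neural cell markers were 949 to 1420 CPM in WT SAT and 850 to 1020 CPM in KO SAT.

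The remaining 3 neighbours act on membranes and the cytoskeleton, and none was called between KO and WT. Fignl2, of the fidgetin family of microtubule-severing ATPases, stood at 14.6 to 20.7 CPM over all 16 libraries, with log2 fold changes of -0.03 ± 0.10 in SAT and 0.08 ± 0.10 in VAT (edgeR adjusted p = 0.903 and 0.779). Its relative Fignl1, which acts in DNA repair by recombination, rose in both depots (0.89 ± 0.18, edgeR adjusted p = 0.00706 in SAT, and 1.11 ± 0.18, edgeR adjusted p = 0.00103 in VAT) and was the sole gene called of 8 tested in that family. Krt80, a keratin of epithelial intermediate filaments, changed by -0.10 ± 0.21 in SAT and -0.21 ± 0.24 in VAT (edgeR adjusted p = 0.821 and 0.733), and none of 12 tested keratins was called.

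Bin2, an N-BAR protein of leukocytes that bends membranes, was measured on 13 to 132 counts per library, so its errors were the widest. In SAT it lay between 0.434 and 1.74 CPM in WT and between 0.529 and 1.51 CPM in KO. In VAT it lay between 1.19 and 1.6 CPM in WT and between 1.54 and 2.68 CPM in KO. Its KO changes of -0.21 ± 0.35 in SAT and 0.54 ± 0.33 in VAT did not pass (edgeR adjusted p = 0.751 and 0.426). Summed levels of 13 myeloid markers, of which Fcgr1 was at 0 in 5 libraries, were 29.5 to 43.4 CPM in WT SAT and 35.3 to 43.9 CPM in KO SAT. In VAT they were 44.8 to 70.4 CPM in WT and 42.2 to 70.4 CPM in KO. Of 12 tested, Cd68 and Fcer1g were called higher in KO VAT, where the median log2 fold change was -0.10, and none was called in KO SAT (0.21). Between depots 5 were higher in VAT in WT and 2 lower, Fcer1g and Tyrobp, and in KO 3 were higher and none lower. The part of myeloid cells in the Bin2 level was not tested.

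**Figure D2:**
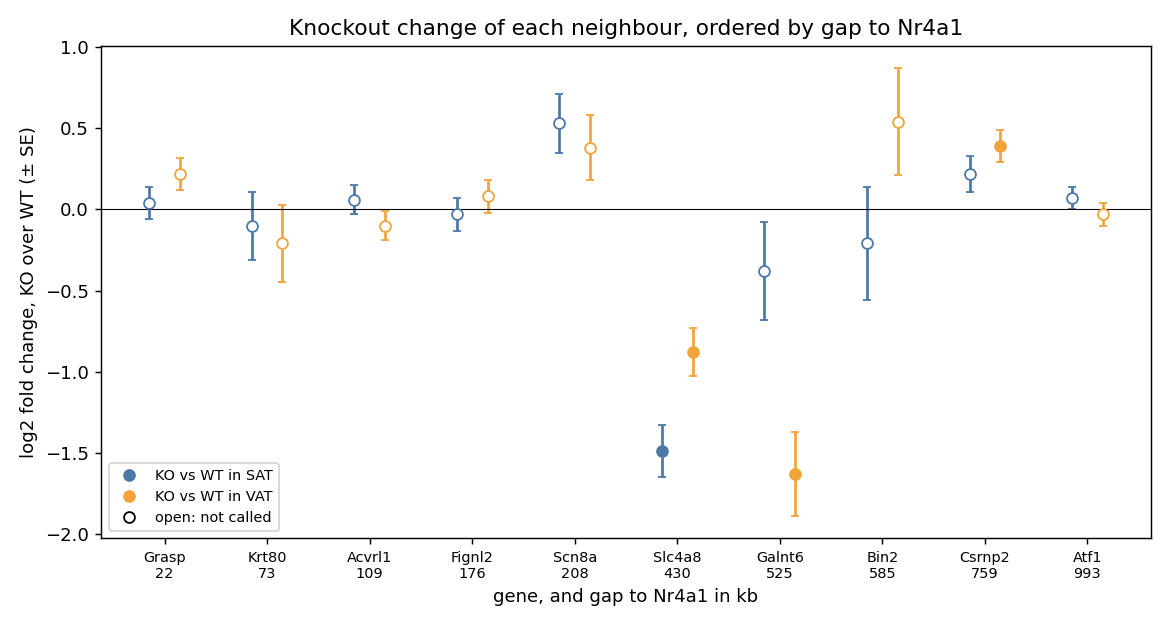
Log2 fold change of KO over WT ± SE (edgeR, vertical axis) for the 10 neighbours in order of gap to Nr4a1 in kb (horizontal axis), in SAT and VAT, with filled points for genes called at adjusted p under 0.05. The filled points belong to Slc4a8 in both depots, and to Galnt6 and Csrnp2 in VAT, while the 5 genes nearest to Nr4a1 all have open points.

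Neither the size of the KO change nor the calls followed the order along the chromosome among these 10. The 5 nearest, Grasp, Krt80, Acvrl1, Fignl2 and Scn8a, at 21.5 to 208.3 kb, held no call in either depot, while Slc4a8, Galnt6 and Csrnp2, at 430.3 to 758.8 kb, did. Bin2, at 584.7 kb, and the farthest, Atf1, had none, and the Csrnp2 call was lost in 14 of 23 other settings. By size, uncalled Scn8a (0.53 in SAT and 0.38 in VAT) stood above Csrnp2 in SAT (0.22) and beside it in VAT (0.39).

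The 10 were picked from a region with more genes, so the region was also counted whole. Within 1.5 Mb of Nr4a1 lay 66 tested genes apart from Nr4a1 itself, the 10 included. In SAT 7 were called (10.6%), 1 higher and 6 lower, and in VAT 9 were called (13.6%), 4 higher and 5 lower. In all, 13 were called in at least 1 depot, 3 of them in both and in the same direction, and none was called in opposite directions. The SAT count was 4 or lower without WT SAT replicate 3, without any 1 of the KO SAT libraries, or without WT VAT replicate 1, 3 or 4, and as low as 2. The VAT count was 5 when replicate 4 of WT, or replicate 2 or 4 of KO, was left out of the VAT libraries.

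Mettl7a1, a lipid droplet and endoplasmic reticulum protein gene 0.93 Mb from Nr4a1, gave the smallest p-value of these neighbours. It stood at 46.5, 47.8, 47.9 and 48.5 CPM in WT SAT and 26.5, 22.3, 25.8 and 24.3 CPM in KO SAT. The VAT libraries held 65.7, 67.5, 71.1 and 61.3 CPM in WT and 35.2, 38.1, 38.6 and 39.6 CPM in KO. The KO libraries were far below the WT libraries in both depots, with log2 fold changes of -0.95 ± 0.07 (edgeR adjusted p = 4.26e-07) and -0.81 ± 0.07 (edgeR adjusted p = 3.69e-06). The gene has close copies beside it in the genome, so its value is uncertain where reads match more than 1 copy.

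Cela1, an elastase gene that lies between Bin2 and Galnt6, also fell in VAT (-0.94 ± 0.22, edgeR adjusted p = 0.0195), a call lost in 5 of 23 other settings, among them without WT VAT replicate 4 or without KO VAT replicate 1, 2 or 4. In SAT it stood at -0.76 ± 0.22 (edgeR adjusted p = 0.0553). Its KO VAT libraries were at 2.23, 2.35, 4.08 and 1.76 CPM. As with Galnt6, replicate 3 was the highest. Bin2, on the other side of Cela1, was not called.

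Closer to Nr4a1, Acvr1b, an activin receptor gene between Acvrl1 and Grasp, was not called (-0.21 ± 0.14 in SAT and -0.23 ± 0.14 in VAT, edgeR adjusted p = 0.382 and 0.426). Atg101, an autophagy gene listed in the table as 9430023L20Rik, is the nearest gene at higher coordinates. It was lower in KO SAT (-0.65 ± 0.18, edgeR adjusted p = 0.04), where WT SAT replicate 3 stood at 36.2 CPM against 17.9 to 19.2 in the other 3. Without that library the change was -0.35 and the call was lost (edgeR adjusted p = 0.0543), and it was lost in 10 of 23 other settings in all. Its VAT change of -0.29 ± 0.18 did not pass (edgeR adjusted p = 0.429).

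Of the other named genes called within 1.5 Mb, Espl1, the gene of separase, which cuts cohesin at anaphase, rose in both depots. Its log2 fold change was 1.01 ± 0.19 in VAT (edgeR adjusted p = 0.00393), a call that held in all 23 other settings. In SAT it was 0.79 ± 0.18 (edgeR adjusted p = 0.0176), and that call was lost in 3 settings, without KO SAT replicate 2 or 4 and with only the SAT libraries. Aaas, a nuclear pore gene, rose in VAT (0.46 ± 0.10, edgeR adjusted p = 0.0115), and its call also held in all 23.

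The other 4 lost their calls more often. In VAT, Letmd1 fell (-0.27 ± 0.06, edgeR adjusted p = 0.0226) and Csad, a taurine synthesis gene, rose (0.39 ± 0.09, edgeR adjusted p = 0.0263). The Letmd1 call was lost in 6 of 23 settings (adjusted p up to 0.0794), which were only the VAT libraries and the removal of replicate 2 or 4 of WT or replicate 1, 2 or 4 of KO from VAT. The Csad call was lost in 5 (adjusted p up to 0.0999), with replicate 1, 2 or 4 of WT or replicate 2 or 4 of KO removed from VAT. In SAT, Dazap2 was lower (-0.20 ± 0.06, edgeR adjusted p = 0.0471), a call lost in 17 of 23 settings. Pfdn5, a prefoldin subunit gene, was also lower in SAT (-0.65 ± 0.19, edgeR adjusted p = 0.0498), a call lost in 16 settings. WT SAT replicate 3 held 171 CPM of Pfdn5, against 81 to 88.5 in the other 3, and without it the change was -0.32 (edgeR adjusted p = 0.0651).

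Of genes 1.5 to 10 Mb away, the 4 with the smallest p in each depot included genes of cell division. Racgap1, a cytokinesis gene 1.60 Mb from Nr4a1, rose by 1.37 ± 0.18 in SAT and 1.56 ± 0.17 in VAT (edgeR adjusted p = 0.000163 and 4.24e-05). Troap, a spindle gene, rose by 1.42 in SAT and 1.92 in VAT (edgeR adjusted p = 0.00163 and 9.65e-05). Gpd1, a glycerol phosphate enzyme gene, rose in VAT (1.56 ± 0.25, edgeR adjusted p = 0.00123) and stood at -0.01 in SAT. Ppp1r1a, a phosphatase inhibitor gene, rose in VAT (1.03, edgeR adjusted p = 0.0016) and stood at -0.49 in SAT. Tuba1c, a tubulin gene, and Rapgef3, a cAMP sensor gene, fell in SAT (-0.56, edgeR adjusted p = 0.00396, and -0.72, edgeR adjusted p = 0.0165) and stood at 0.00 and -0.03 in VAT.

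**Figure D3:**
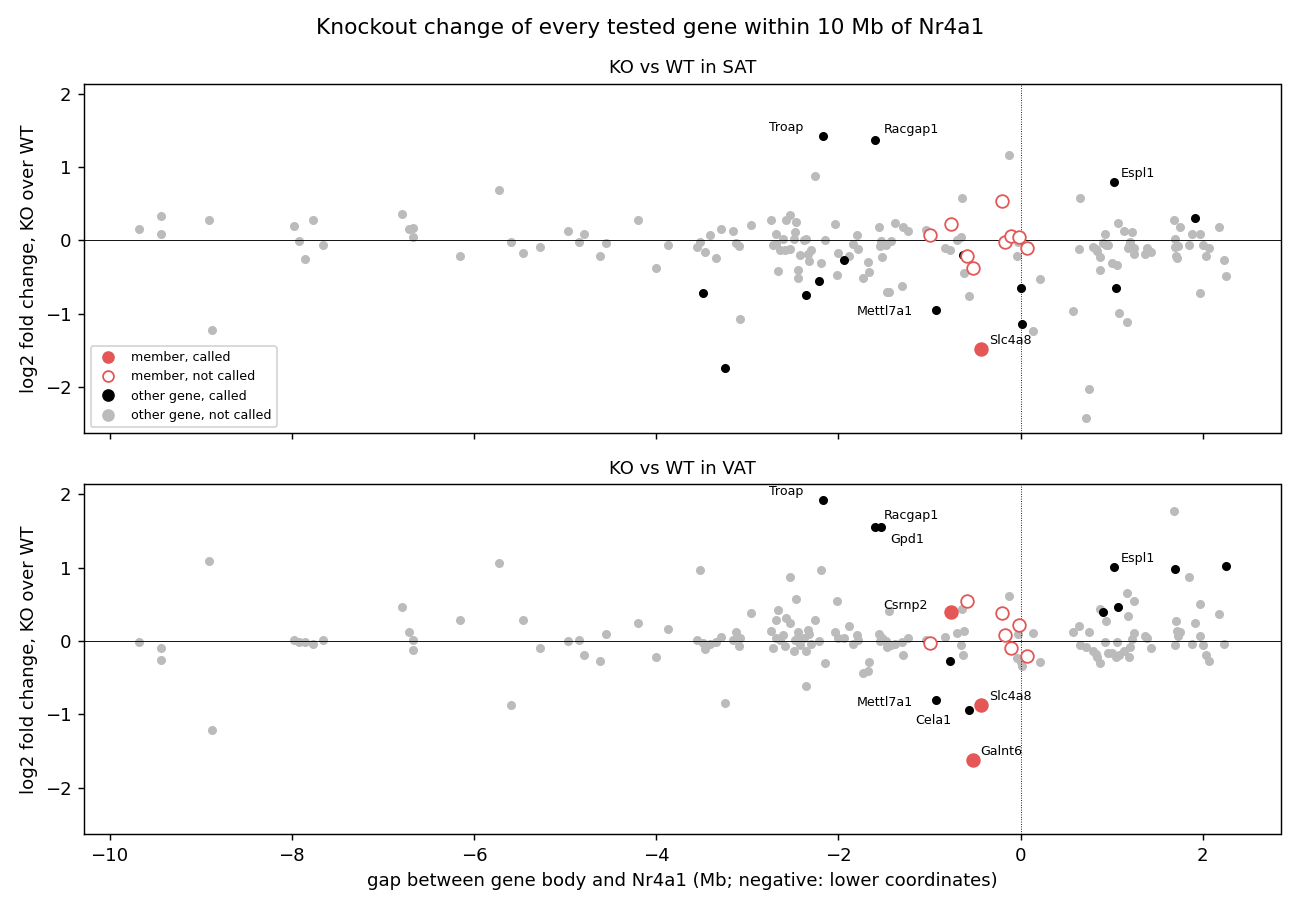
Log2 fold change of KO over WT (vertical axis) of every tested gene within 10 Mb of Nr4a1 against the signed gap to Nr4a1 in Mb (horizontal axis), SAT above and VAT below, with the 10 neighbours followed here as red circles (the members of the legend) and filled or black points for genes called. Called genes at negative and positive changes are scattered among uncalled ones on both sides, and Slc4a8 and Mettl7a1 are low in both panels.

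Binned by gap, the share of genes called lower in KO was highest within 0.5 Mb in SAT (23.1%) and from 0.5 to 1 Mb in VAT (14.8%). It did not fall steadily with distance, the nearest bin is thin and no test was made of these shares. Within 0.5 Mb, 3 of 13 tested genes were called in SAT (23.1%), all lower, and 1 of 13 in VAT (7.69%), which was Slc4a8. Those in SAT were Slc4a8, Atg101 and a gene with a provisional name. From 0.5 to 1 Mb the count was 2 of 27 in SAT (7.41%), both lower, and 6 of 27 in VAT (22.2%), 4 lower and 2 higher. From 1 to 2 Mb it was 5 of 52 in each depot (9.62%), and all 5 in VAT were higher. From 2 to 5 Mb, 5 of 57 were called in SAT (8.77%), 4 of them lower (7.02%), and 2 of 57 in VAT (3.51%), both higher. From 5 to 10 Mb none of 19 was called in either depot. Over 10 Mb away on chromosome 15, 38 of 491 were called in SAT (7.74%, with 4.28% lower) and 29 in VAT (5.91%, with 2.24% lower). On other chromosomes 931 of 15975 genes were called in SAT (5.83%, with 2.35% lower) and 637 in VAT (3.99%, with 1.21% lower). With 1 library left out at a time, the SAT count within 0.5 Mb ranged from 1 to 3, and it was 1 with replicate 3 of WT, or replicate 1 or 4 of KO, left out of the SAT libraries. The VAT count from 0.5 to 1 Mb ranged from 2 to 7, and it was 2 or 3 with replicate 2 or 4 of WT, or replicate 1, 2 or 4 of KO, left out of the VAT libraries. Slc4a8 alone makes up the lowest of these counts in the nearest bin. The median size of change within 0.5 Mb was 0.53 in SAT and 0.23 in VAT, beside 0.18 and 0.14 on other chromosomes. These medians cover called and uncalled genes alike, without account of their levels. Scn8a, which stood at 0.53 in SAT, was not called.

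**Figure D4:**
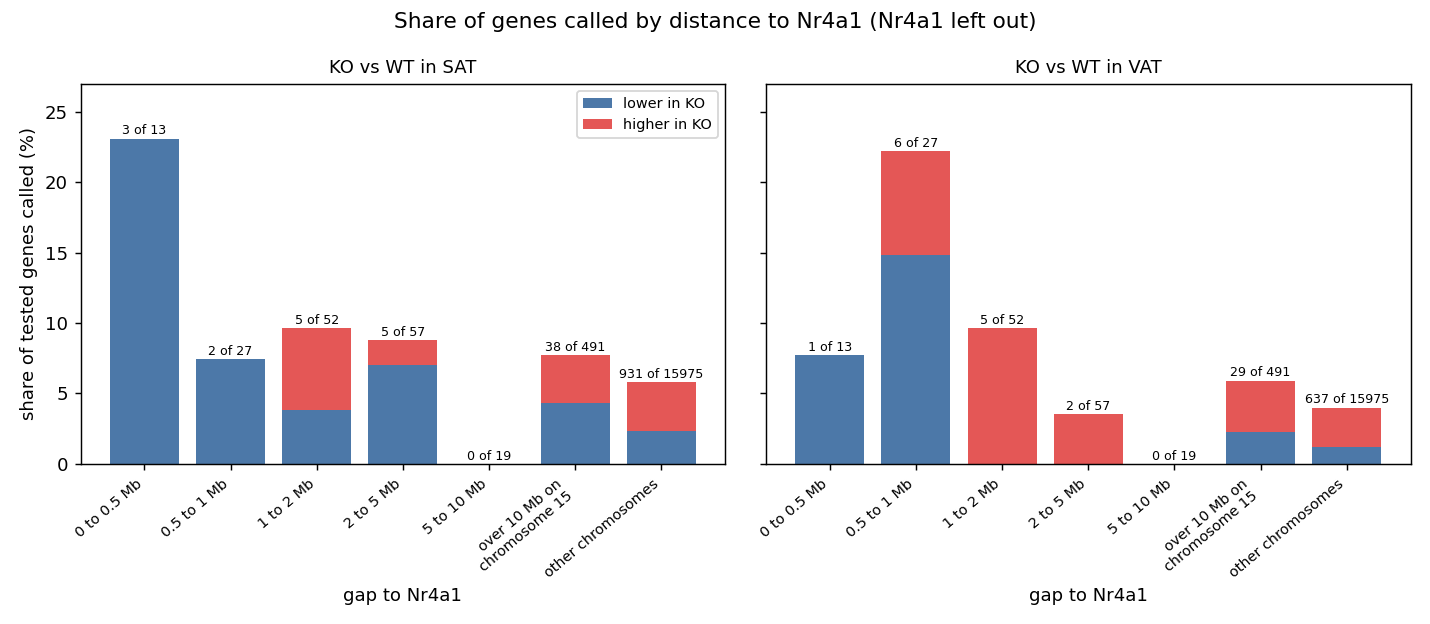
Share of tested genes called in KO against WT (vertical axis, percent) by gap to Nr4a1 (horizontal axis), SAT left and VAT right, split into genes lower and higher in KO, with the counts above the bars. The nearest bin holds 13 genes, of which 3 were called in SAT and 1 in VAT, all lower.

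More of the 10 neighbours were called between depots than between genotypes. Between VAT and SAT in WT, 4 of the 10 were called, against 36.7% of all genes tested. Of these, 1 was higher in VAT (19.1% of all genes) and 3 were lower (17.6%). In KO 5 of the 10 were called, against 43.3% of all genes tested, 3 of them higher (23.3%) and 2 lower (20%). These shares are near those of all genes. The depots' libraries did not overlap for 5 of the 10 in WT (34.1% of all genes) and 5 in KO (45.6%). No neighbour passed the interaction test, which asks whether the KO effect differs between depots, against 0.267% of all genes. For that test 2 of the 10, Galnt6 and Slc4a8, had an unadjusted p under 0.05 in edgeR, as did 2692 of the 16842 genes tested. DESeq2 and limma-voom also called 0 of the 10.

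Krt80 and Scn8a were lower in VAT in both genotypes. Krt80 stood at 12.5, 10.1, 4.77 and 9.15 CPM in WT SAT and 2.1, 1.91, 1.82 and 1.98 CPM in WT VAT. In KO it stood at 8.07, 8.09, 9.65 and 8.37 CPM in SAT and 2.11, 1.25, 2.03 and 1.36 CPM in VAT. The depots did not overlap, although WT SAT replicate 3 was well below the others of its group. Its log2 fold change of VAT over SAT was -2.23 ± 0.23 in WT (edgeR adjusted p = 7.63e-07) and -2.33 ± 0.23 in KO (edgeR adjusted p = 4.16e-07). Scn8a, whose values are given above, changed by -1.82 ± 0.19 in WT and -1.98 ± 0.19 in KO (edgeR adjusted p = 9.32e-07 and 2.33e-07).

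Keratins differed between depots in both directions. Of 12 tested, 5 were higher in VAT of both genotypes, Krt7, Krt8, Krt14, Krt18 and Krt19, most of them keratins of simple epithelium. In WT 4 were lower in VAT, Krt80, Krt10, Krt20 and Krt4, and in KO these and Krt23 were lower. The 8 mesothelium markers, of which Wt1, Bnc1, Muc16 and Upk1b were at 0 in some SAT libraries, summed to 6.7 to 10.1 CPM in SAT and 785 to 1560 CPM in VAT. Schwann and neural cell markers summed to 850 to 1420 CPM in SAT and 416 to 553 CPM in VAT, in the same direction as Scn8a. The part of these cells in the depot differences was not tested.

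Galnt6 was higher in VAT in both genotypes. The log2 fold change of VAT over SAT was 2.62 ± 0.28 in WT, or 6.17 times (edgeR adjusted p = 1.06e-06), and 1.37 ± 0.28 in KO, or 2.59 times (edgeR adjusted p = 0.000812). Every VAT library was above every SAT library of its genotype. Mesothelium and epithelium markers were higher in VAT in the same libraries.

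Slc4a8 was higher in VAT in KO (0.84 ± 0.16, edgeR adjusted p = 0.000298). In WT it stood at 0.23 ± 0.15 and did not pass (edgeR adjusted p = 0.253), though without WT SAT replicate 2, the highest of its group at 37.4 CPM, the change was 0.42 and passed (edgeR adjusted p = 0.00859). Bin2 was higher in VAT in KO (1.11 ± 0.34, edgeR adjusted p = 0.0133) and stood at 0.35 ± 0.34 in WT (edgeR adjusted p = 0.454). Grasp was lower in VAT in WT (-0.38 ± 0.10, edgeR adjusted p = 0.00533) and stood at -0.20 ± 0.10 in KO (edgeR adjusted p = 0.113), a value that passed without KO VAT replicate 4 (-0.26, edgeR adjusted p = 0.0492). For none of these 3 genes did the interaction pass, so their depot differences were not shown to differ between genotypes.

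Acvrl1, Fignl2, Csrnp2 and Atf1 were not called between depots in either genotype. Their log2 fold changes of VAT over SAT in WT and KO were 0.08 and -0.08 for Acvrl1, -0.17 and -0.07 for Fignl2, -0.01 and 0.17 for Csrnp2, and 0.03 and -0.08 for Atf1, each with an SE of 0.07 to 0.11. Without KO SAT replicate 3 Csrnp2 passed between depots in KO (edgeR adjusted p = 0.0483).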

How the data were processed

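The authors deposited a table of whole-number counts per gene symbol for 16 libraries of 4 groups, which every test used as deposited. The submitters' processing notes name the build mm10 and the tools featureCounts, STAR, DESeq and FastQC; versions, annotation and strand setting were not given in the sources used here. A second deposited table, of normalized values, was not used. Genes were kept by filterByExpr and scaled by TMM, and a quasi-likelihood model with a term for each group covered all libraries (R 4.3.3, edgeR 4.0.16, 12 residual degrees of freedom, no covariate). SE is the size of the log2 fold change over the square root of F. Calls had a Benjamini-Hochberg adjusted p under 0.05 over 16842 genes. The alternatives used DESeq2 1.42.0 and limma 3.58.1, among others. The model was tested on simulated counts. GENCODE vM21 symbols matched 35628 of 38720 lines and RefSeq synonyms 1768.

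The neighbours and the gene lists were chosen with earlier results of these data known. Besides the neighbours, the text names Acvr1b, Atg101, each protein-coding gene called within 1.5 Mb, the 4 with smallest p per depot out to 10 Mb, up to 3 called genes per list, and the 3 most correlated genes. Genes with provisional names are not named apart from Atg101. No 2 libraries of a group agreed within sampling noise (chi-square per degree of freedom 13.1 to 124).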

Additional observations from a re-analysis of the deposited data

Results flagged for a closer look

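Each neighbour was screened in each group of 4 libraries for a library that stands apart, by the gap to its nearest neighbour as a share of the group's range (Dixon's critical value at the 95% level). Of 40 groups screened, 2 passed, and chance alone passes about 1 in 20. Acvrl1 in WT VAT replicate 3 was 139 CPM, below the other 3, which lay between 150 and 151. Scn8a in KO VAT replicate 2 was 2.4 CPM, above the other 3, which lay between 1.85 and 1.87, on 109 counts against 79 to 92.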

How the results depend on the processing

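Beside the test used, 23 alternatives were run per KO or depot contrast (DESeq2, RLE scaling, no low-count filter, limma-voom, the replicate block, only the libraries of the contrast, each library left out in turn and, added after seeing the data, both libraries least like their groups left out), and distance from start sites in place of gaps. Neighbours called in KO SAT were 1, 2 in DESeq2, and 1 to 2 with 1 library left out (2 without KO SAT replicate 2). For the interaction, 0 became 0 to 1 (1 without KO VAT replicate 3). With 1 library left out, 2 to 3 neighbours were called in KO VAT, 4 to 5 between depots in WT and 5 to 6 in KO. Genes called within 1.5 Mb in SAT, 7, were 12 in DESeq2, 4 in limma-voom, 3 with only SAT libraries and 2 to 9 with 1 library left out; in VAT, 9, they were 5 to 11. With the replicate block the neighbours called stayed 1, 3, 4, 5 and 0, and genes within 1.5 Mb were 5 and 9; the labels do not say what a replicate number shares. Residuals of same-numbered libraries correlated by -0.16 to 0.176, above 0.1 in 4 of 24 pairs. Between depots their median was 0.116 in WT (other numbers -0.039), where 2 of 4 libraries correlated best with their own number, and 0.0435 in KO (other numbers -0.011), where 3 of 4 did, so a pairing by animal was neither stated nor shown. Of 1990 values of single genes under alternatives, 1868 kept direction and side of the threshold, 78 lost a call, 17 gained one and 27 changed sign, all uncalled. The results with sign changes had these ranges with 1 library left out. KO in SAT: Grasp -0.03 to 0.10, Krt80 -0.31 to 0.09, Fignl2 -0.08 to 0.06, Bin2 -0.52 to 0.09, Csad -0.09 to 0.04 (0.04 with both outlying libraries out), Gpd1 -0.21 to 0.27 (0.03 in limma-voom, 0.02 with the replicate block). KO in VAT: Fignl2 -0.03 to 0.13, Rapgef3 -0.27 to 0.11. VAT over SAT in WT: Csrnp2 -0.05 to 0.04 (0.01 without the filter), Atf1 -0.01 to 0.07. Interaction: Krt80 -0.30 to 0.10 (0.19 with both out). The causes were not tested. Depth limits Bin2, at 13 to 132 counts, and Galnt6 in SAT, at 33 to 64.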
